A study of Mus musculus with 4 samples.

Results

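The enzymes of oxidative phosphorylation are described here in cultured mouse melanoma cells, as the mRNA levels of the nuclear genes for the subunits of the respiratory chain and of ATP synthase. Members were chosen by name alone: every gene whose probe accession matched a mouse RefSeq symbol beginning with *Ndufa*, *Ndufb*, *Ndufc*, *Ndufs*, *Ndufv*, *Uqcr*, *Cox4* to *Cox8* or *Atp5*, together with *Sdha*, *Sdhb*, *Sdhc*, *Sdhd*, *Cyc1* and *Cycs*. Of 20832 genes with a probe, 95 met this rule, and 92 of these were among the 11958 genes kept because both arrays of Met-low, of Met-high or of both read well above background. The other 3 members were *Cox7b2*, *Cox8b* and *Cox8c*, isoforms of complex IV subunits known mainly from testis or striated muscle, and none of them was well above background on any array. The prefixes also took in 8 assembly factors of complex I (*Ndufaf1* to *Ndufaf8*), which are not part of the finished enzyme. The subunits encoded in mitochondrial DNA were not analysed here, since no probe matched them.

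B16-F10, a metastatic line derived from a melanoma of a C57BL/6 mouse, was sorted by the amount of the HGF receptor Met on the cell surface into Met-low and Met-high cells, and both populations were then cultured in serum-containing medium for 3 days without any other treatment. RNA was taken from 2 separate preparations of Met-low and 2 of Met-high, and each Cy3-labelled sample had an array to itself, 4 in all. The populations come from a single cell line grown in a dish, and RNA was taken at the end of the culture and not at the sort, so each sample holds the cells present on day 3. The question addressed here is whether cells that differ in surface Met also differ in the mRNAs of the respiratory enzymes.

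All 4 arrays were on 1 slide and in 1 scan, with the Met-low samples in the first positions and the Met-high samples in the last, so the effect of position cannot be told apart from that of Met. Each array was scaled to the 75th percentile of its intensity, which lay between 858 and 1331, between 50% and 53.6% of spots were well above background, and no spot was saturated. The melanocyte lineage was present, with 7 of 7 markers well above background on all arrays. Well above background on all arrays were 1 of 5 fibroblast and 2 of 4 leukocyte markers. The same held for 1 of 3 endothelial and 0 of 3 keratinocyte markers. *Krt14* and *Pecam1* were well above background on 3 arrays, *Krt5* on 2, and *Col1a1*, *Col3a1* and *Adgre1* on 1. *Ptprc*, *Cdh5*, *Dcn*, *Pdgfra* and *Krt1* were so on none. Of the markers detected on all arrays, *Col1a2*, a fibroblast collagen that other cells can express too, was lower in Met-high (log2 ratio -1.10, limma adjusted p = 0.031). The leukocyte genes *Itgam* (-0.65) and *Cd3e* (0.37) and the endothelial *Kdr* (0.36) did not pass. The part of such cells in the results was not tested. The *Met* probe itself read -0.26 and -0.89 in Met-low and 1.03 and -0.43 in Met-high on the log2 scale relative to the 75th percentile. The populations overlapped for this probe, with a difference of 0.87 (SE 0.51, limma adjusted p = 0.33). The difference was 0.14 without Met-high replicate 1 (adjusted p = 0.82) and 1.61 without Met-high replicate 2 (adjusted p = 0.020), and with median scaling it was 1.06 (adjusted p = 0.0093).

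Oxidative phosphorylation couples the oxidation of NADH and succinate to the synthesis of ATP at the inner mitochondrial membrane. Complex I takes electrons from NADH and complex II from succinate, ubiquinone passes them to complex III, cytochrome c carries them on to complex IV, and complex IV reduces oxygen to water. Complexes I, III and IV pump protons, and complex V, the ATP synthase, lets the protons back through its membrane part to drive its catalytic head. Most subunits are nuclear genes that are expressed in nearly every cell type, and many of their promoters are known to be bound by NRF1, GABP and YY1. Some subunits of complex IV exist as ubiquitous and tissue-specific isoforms, and tumour cells differ widely in how far they rely on this pathway.

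Of the 92 members, 75 matched a promoter window in the RefSeq table for assembly GRCm38.p6, reaching from 250 bases before to 50 bases after the start of the gene. The letters GCATGCGC, the core of the NRF1 recognition sequence, were searched on both strands because NRF1 is the factor best known for these genes. They were present in 13 of 75 members (17.3%), against 6.03% of the 9634 kept genes with a window and 3.05% of all 27025 genes with a window. As examples from complexes I, II, IV and V and cytochrome c, the stretches of *Ndufa8* (complex I), *Sdhb* (complex II), *Cycs* (cytochrome c), *Cox6a1* (complex IV) and *Atp5l* (complex V) are printed 5′ to 3′ on the strand of the gene. Capitals mark the first match on either strand, with up to 30 bases of the window before the gene start on each side. *Ndufa8* lies on the minus strand (chr2:36049339-36049376), *Sdhb* on the plus strand (chr4:140961187-140961254), *Cycs* on the minus strand (chr6:50566592-50566659), *Cox6a1* on the minus strand (chr5:115349083-115349150) and *Atp5l* on the minus strand (chr9:44920945-44920992). The matches of the complex III genes *Uqcr11* and *Uqcrc1* and of *Ndufaf5* reached past the start of the gene and are not printed.
Ndufa8: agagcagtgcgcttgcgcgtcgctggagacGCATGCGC
Sdhb: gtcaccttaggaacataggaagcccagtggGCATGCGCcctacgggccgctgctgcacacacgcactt
Cycs: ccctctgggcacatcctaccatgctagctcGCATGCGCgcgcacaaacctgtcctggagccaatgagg
Cox6a1: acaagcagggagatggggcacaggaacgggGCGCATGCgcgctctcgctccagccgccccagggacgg
Atp5l: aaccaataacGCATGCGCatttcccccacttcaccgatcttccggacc
The match began 8 bases before the start of *Ndufa8* and 240 bases before that of *Atp5l*, so its place in the promoter differed between genes. The 13 genes that hold it had log2 ratios of Met-high over Met-low from -0.22 for *Ndufa6* to 0.53 for *Uqcrc1*, with a median of 0.10, and the members without it had a median of 0.03. AAGATGGCG, a YY1 site, was present in 8 of the 75 members and 3.67% of the kept genes. CCGGAAG, an ETS site of the kind bound by GABP, was present in 25.3% and 20.2%, and ACGTG, the core of the hypoxia response element, in 24% and 29.3%. None of these motifs contains another. A match is a description of the letters and not of binding.

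Throughout, a level is a log2 signal after subtraction of the array's own 75th percentile, and a log2 ratio is the mean level in Met-high minus the mean level in Met-low, so a positive ratio means a higher signal in Met-high. In these bulk samples fewer cells expressing a gene and less RNA per cell cannot be told apart. The respiratory mRNAs differed little between the populations. A higher mean in Met-high was found for 54 members (58.7%) and for 59.5% of all genes. The counts by complex and by list below are to be read beside that share. The median log2 ratio of the 92 members was 0.05, beside 0.10 over all 11958 genes, and the middle 50% of the members spanned 0.31 log2 units (-0.11 to 0.20), beside 0.55 for all genes. A ratio within 0.5 of 0 was found for 87 members (94.6%) and for 72.6% of all genes. The members were far brighter, with median levels per array of 5.44 to 5.72, beside 0.34 to 0.37 for all genes. The part of brightness in the narrower spread was not tested. The 95% interval lay wholly within 1 log2 unit of 0, that is, within 2-fold, for the same share of members (87 of 92) and for 68.6% of all genes. The 5 members whose interval reached past 2-fold were *Ndufab1*, *Uqcrc1*, *Cyc1*, *Ndufa4l2* and *Atp5d*.

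None of the members passed an adjusted p of 0.05 in limma, fitted over all genes, where 1.95% of all genes were called higher in Met-high and 3.82% higher in Met-low. At an unadjusted p under 0.05, 2 members were higher in Met-high, where 14.3% of all genes were, and 3 were higher in Met-low, where 11.9% were. With a mean-variance trend in the moderated test 1 member passed (*Ndufab1*), and with robust moderation 0 did. With median scaling 2 passed (2.17%, beside 12.3% of all genes). With the replicate number as a block 6 passed (6.52%, beside 29.7% of all genes). No member was over 2-fold higher in Met-high, beside 2.43% of all genes, and 1, *Ndufa4l2*, was over 2-fold higher in Met-low, beside 5.29%. Both Met-high arrays lay above both Met-low arrays for 25 members (35.7% of all genes), and both Met-low arrays lay above for 23 (22.6% of all genes). The smallest adjusted p of any member was 0.064. The 95% intervals had a median half-width of 0.43 log2 units, from 0.38 to 0.93, which sets the difference that 2 arrays against 2 could resolve. Permuting 4 arrays gives only 3 distinct divisions, too few for a p of 0.05.

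**Figure D1:**
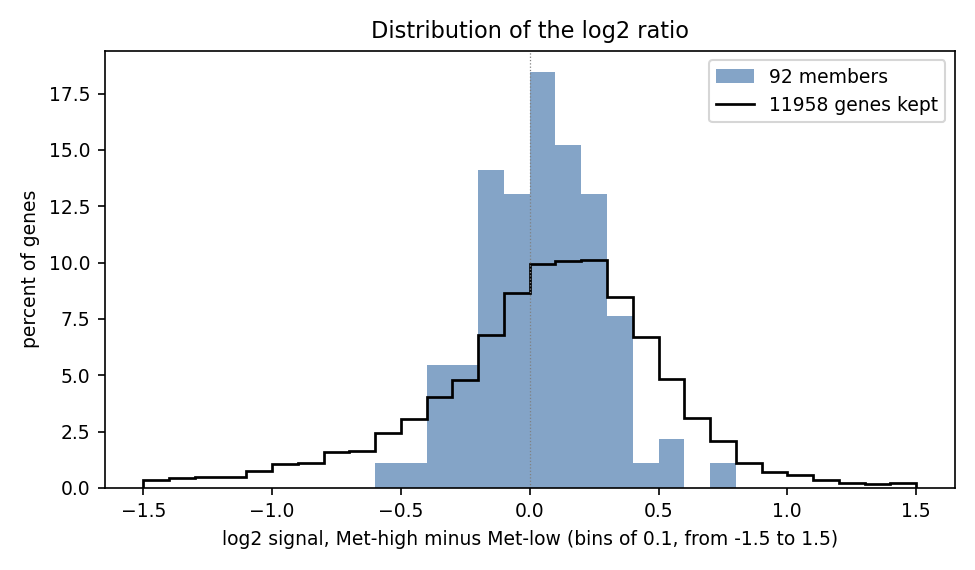
Distribution of the log2 ratio (Met-high minus Met-low, horizontal axis, bins of 0.1) as a percent of genes (vertical axis) for the 92 members (filled) and all 11958 genes kept (line). The members crowd around 0, with 94.6% within 0.5 on either side beside 72.6% of all genes, whose median level was lower. *Ndufa4l2*, at -1.69, lies outside the range drawn.

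The sign of the small median depended on the scaling and on single arrays, so it is not read as a direction. The median of all genes was 0.10 with the 75th percentile, -0.05 with the percentile over detected probes and 0.28 with median scaling. The median of the members moved with it, to -0.09 and 0.23. It stayed 0.05 below it because these scalings shift every gene by the same amount. With quantile normalization the members' median was -0.04, beside 0.07 for all genes. Without Met-low replicate 1 it was -0.01, and without Met-high replicate 2 it was -0.08. Replicates of 1 population differed by amounts of a similar size to the difference between populations. The former compares single arrays and the latter means of 2 arrays, which vary less. The median difference between the 2 Met-high arrays was 0.19, with replicate 2 above replicate 1 for 77 of 92 members, and that between the 2 Met-low arrays was 0.10, with replicate 2 above for 69. Over all genes the corresponding medians were 0.04 and 0.02. In size, the median difference between replicates was 0.13 in Met-low and 0.20 in Met-high for the members, beside 0.16 between the populations. Replicate 2 also had the higher 75th percentile of intensity in each population (1331 against 942 in Met-low and 1111 against 858 in Met-high), and its part in this was not tested.

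**Figure D2:**
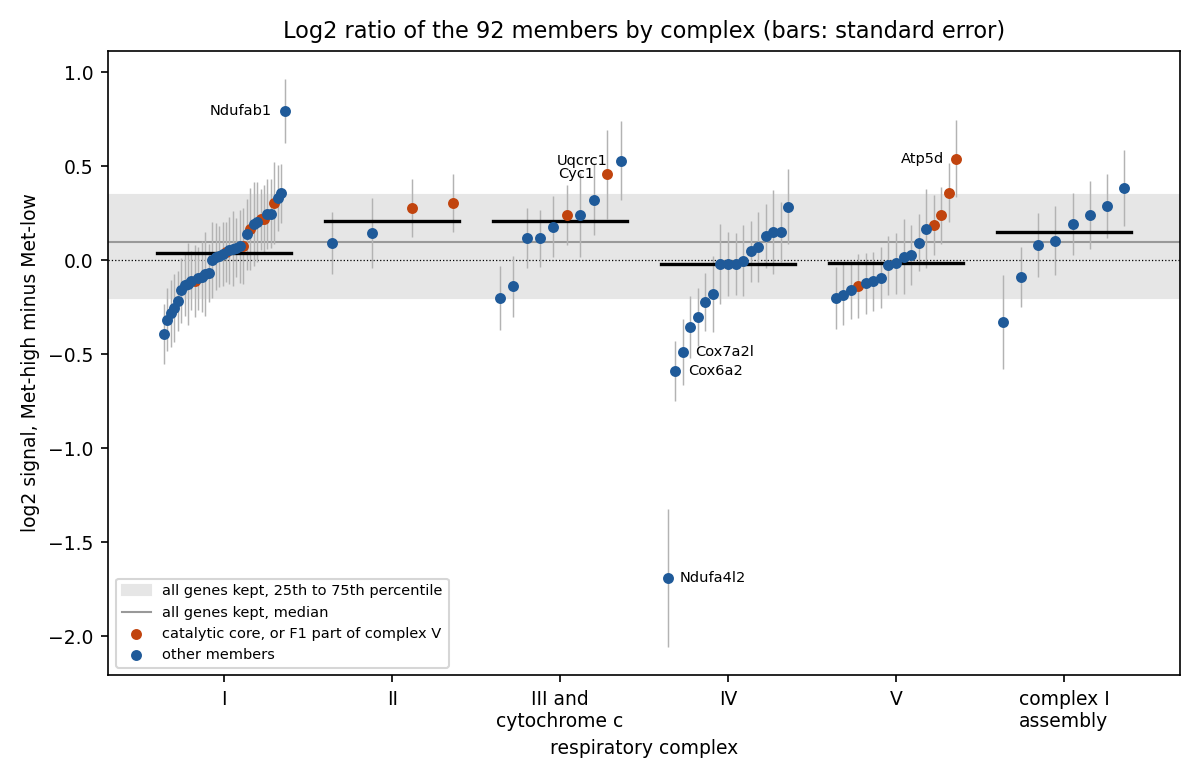
Log2 ratio (Met-high minus Met-low) of each of the 92 members, ordered within its complex, with bars for the standard error from limma (n = 2 arrays per population). Black lines are the medians of each complex (0.04, 0.21, 0.21, -0.02, -0.02 and 0.15 from left to right), the grey band is the middle 50% of all genes, and *Ndufa4l2* stands apart at -1.69.

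Complex I, the NADH dehydrogenase, was measured by 36 subunits, 22 of them with a higher mean in Met-high (61.1%, beside 59.5% of all genes). Its median ratio was 0.04. This median was -0.11 with the percentile over detected probes, -0.07 with quantile normalization, -0.04 without Met-low replicate 1 and -0.11 without Met-high replicate 2. The 7 core subunits, which hold the flavin and the iron-sulphur clusters, had ratios from -0.11 (*Ndufs3*) to 0.30 (*Ndufs7*), with 6 of 7 above 0 and a median of 0.17. The 95% interval of *Ndufs7*, -0.25 to 0.86, included 0. The 29 accessory subunits, which surround the core, had 16 above 0 and a median of 0.02. Their arrays did not overlap for 4 subunits higher in Met-high (35.7% of all genes) and 9 higher in Met-low (22.6% of all genes). The 9 included *Ndufb4*, *Ndufc1*, *Ndufb3* and *Ndufa1*.

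The highest ratio of all members was that of *Ndufab1*, the mitochondrial acyl carrier protein, which is an accessory subunit of complex I and also carries the growing chain in mitochondrial fatty acid synthesis. Its levels were 0.73 and 0.94 in Met-low and 1.55 and 1.71 in Met-high. Both Met-high arrays lay above both Met-low arrays, and the gap between the populations was wider than that within either. The log2 ratio was 0.79 (SE 0.17, 95% interval 0.36 to 1.22), a 1.73-fold difference, which did not pass the threshold (limma adjusted p = 0.064). It passed with a mean-variance trend (adjusted p = 0.039), with median scaling (0.020) and with the replicate number as a block (0.014), and over all alternatives its adjusted p ran from 0.014 to 0.25. The lowest ratio of complex I was that of *Ndufb4*, an accessory subunit of the membrane arm. Its levels were 6.22 and 6.35 in Met-low and 5.83 and 5.95 in Met-high. The arrays did not overlap, and its 2 probes gave ratios of -0.39 and -0.32 (SE 0.16 and adjusted p = 0.20 for the brighter). *Ndufa8* (0.36) and *Ndufa9* (0.33), accessory subunits, stood next to *Ndufab1* at the upper end, both with the Met-high arrays above the Met-low arrays and intervals that included 0.

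All 4 subunits of complex II, the succinate dehydrogenase that also works in the citric acid cycle, had a higher mean in Met-high, with a median ratio of 0.21. The flavoprotein *Sdha*, which oxidises succinate, had levels of 4.22 and 4.29 in Met-low and 4.53 and 4.59 in Met-high. The iron-sulphur subunit *Sdhb* had levels of 6.92 and 6.99 in Met-low and 7.22 and 7.25 in Met-high. For both genes the 2 arrays of each population lay close together and the populations did not overlap. The ratio of *Sdha* was 0.31 (SE 0.15, 95% interval -0.08 to 0.70, limma adjusted p = 0.27), and *Sdhb* gave 0.28 with 1 probe and 0.34 with the other. The membrane anchors *Sdhd* and *Sdhc* had ratios of 0.14 and 0.09, and their arrays overlapped (SE 0.17 and limma adjusted p = 0.76 for *Sdhc*, the lowest of the complex). Under the 18 alternatives the median of complex II stayed above 0 and above that of all genes, between 0.07 and 0.39. Several of them, such as median scaling or another variance model, cannot move this median relative to that of all genes. *Sdhc* alone turned to -0.05 with the percentile over detected probes and to -0.06 with quantile normalization.

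Complex III and cytochrome c gave 10 members, 8 with a higher mean in Met-high, and a median ratio of 0.21. The Met-high arrays lay above the Met-low arrays for 7 of them and below for 2, beside 35.7% and 22.6% of all genes. The highest was *Uqcrc1*, a core protein of the matrix side of complex III. Its levels were 4.10 and 4.30 in Met-low and 4.51 and 4.94 in Met-high. The populations did not overlap, but the Met-high arrays were further apart than the nearest arrays of the 2 populations. The ratio was 0.53 (SE 0.21, 95% interval -0.00 to 1.06, limma adjusted p = 0.19). *Cyc1*, cytochrome c1, which hands electrons to cytochrome c, had levels of 5.71 and 6.11 in Met-low and 6.15 and 6.59 in Met-high, with a ratio of 0.46 (adjusted p = 0.29). Its populations were separated by less than the distance between the 2 arrays of either. The Rieske protein *Uqcrfs1* (0.24) and *Uqcrc2* (0.32), the other core protein, had ratios on the same side, and *Uqcrb* (-0.20, SE 0.17, adjusted p = 0.49) was the lowest. The median of these 10 genes stayed above 0 and above that of all genes under the 18 alternatives, several of which cannot move it relative to all genes. Quantile normalization was the nearest, at 0.01 above all genes.

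*Cycs*, the somatic cytochrome c, was the member whose probes disagreed most. The brightest probe read 6.69 and 6.86 in Met-low and 6.59 and 6.68 in Met-high, a ratio of -0.14 (SE 0.16, adjusted p = 0.62). A second probe gave -0.54, which did not pass when every probe was fitted by itself (SE 0.18, limma adjusted p = 0.16). The third and dimmest read -3.71 and -3.32 in Met-low and -5.22 and -4.93 in Met-high, where it was well above background on neither array, so its signal in Met-high is a bound. On each Met-high array the higher of its own signal and the lowest signal that was well above background was taken. Met-low lay 2.69-fold above this for the third probe, which is not a strict lower limit. The limma adjusted p of this probe over all probes was 0.035. It had been kept through the Met-low arrays alone, so this p is given as a description. All 3 probes had the lower mean in Met-high, and by how much depended on the probe. Cytochrome c also has processed pseudogenes, and whether the probes share signal with them was not tested. Of 24 members with several kept probes, *Cycs* was the single one whose probes differed by over 1 log2 unit, and the median range between probes was 0.08. The sign differed for *Ndufaf4* (0.10 and -0.34), *Atp5pb* (-0.11 and 0.04) and *Atp5l* (-0.12 to 0.00 over 5 probes). For the brightest probe of each the SE was 0.18, 0.16 and 0.16 and the limma adjusted p was 0.75, 0.69 and 0.67.

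Complex IV, cytochrome c oxidase, was measured by 17 kept members. All are nuclear genes and none is a catalytic subunit, since those are mitochondrial genes. *Ndufa4l2* and *Cox7a2l* were placed here by their symbols, as relatives of *Ndufa4* and of subunit VIIa. A higher mean in Met-high was found for 6, and the median ratio was -0.02. The Met-low arrays lay above the Met-high arrays for 6 members and below for 2, beside 22.6% and 35.7% of all genes. This median was 0.16 with median scaling and 0.08 without Met-high replicate 1. It lay below that of all genes under all 18 alternatives, several of which cannot move it relative to all genes. The 3 members with an unadjusted p under 0.05 and a higher mean in Met-low, *Ndufa4l2*, *Cox6a2* and *Cox7a2l*, were all among these 17. *Ndufa4l2*, also among the 6 with the Met-low arrays above, was kept through the Met-low arrays alone.

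*Ndufa4l2*, a paralog of *Ndufa4* that is known as a hypoxia-induced gene, had levels of -4.16 and -3.18 in Met-low and -5.12 and -5.60 in Met-high. It was well above background on both Met-low arrays and on neither Met-high array, the only member whose brightest probe behaved so. Its signal in Met-high is therefore a bound, and the gene was kept through the Met-low arrays alone, so its difference is a description. On each Met-high array the higher of its own signal and the lowest signal that was well above background was taken. The Met-low mean lay 2.70-fold above this, which is not a strict lower limit. The measured means were -3.67 in Met-low and -5.36 in Met-high, and the limma adjusted p was 0.065. Over the alternatives the adjusted p ran from 3.6e-05 with median scaling to 0.235 without a filter, and the ratio of the measured means from -2.18 to -0.66. These p-values are a description too, since the Met-high signal was not well above background. With normexp background correction this ratio, -1.69 in the main fit, was -0.66, under 2-fold. *Ndufa4* itself, the ubiquitous subunit of complex IV, had a ratio of -0.00 (SE 0.19, 95% interval -0.48 to 0.48, limma adjusted p = 0.996).

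In the other isoform sets the ratios of tissue-specific and ubiquitous genes lay closer together. *Cox6a2*, the striated muscle isoform of subunit VIa, had levels of -3.03 and -3.18 in Met-low and -3.74 and -3.65 in Met-high. The populations did not overlap, and the arrays of each lay close together. Its ratio was -0.59 (SE 0.16, 95% interval -0.99 to -0.18, limma adjusted p = 0.10). *Cox6a2* was dim on every array, and its ratio was -0.29 with normexp background correction (adjusted p = 0.32) and -0.41 with median scaling (adjusted p = 0.40). Over all alternatives its adjusted p ran from 0.03 to 0.40. The ubiquitous and bright *Cox6a1* had a ratio of 0.05 (SE 0.16, 95% interval -0.36 to 0.46, adjusted p = 0.88). *Cox7a2l*, related to subunit VIIa, had levels of 6.02 and 5.75 in Met-low and 5.37 and 5.43 in Met-high. The populations did not overlap, and its 3 probes gave ratios of -0.49, -0.47 and -0.36 (SE 0.17 and adjusted p = 0.16 for the brightest). The muscle isoform *Cox7a1* had a ratio of -0.18 (SE 0.20, adjusted p = 0.60) and the ubiquitous *Cox7a2* one of -0.02 (SE 0.16, adjusted p = 0.95), and both overlapped between the populations. For subunit IV the ratios were 0.07 for *Cox4i1* (SE 0.19, adjusted p = 0.84) and 0.15 for *Cox4i2* (SE 0.22, adjusted p = 0.70). For subunit VIb they were 0.29 for the testis isoform *Cox6b2* (SE 0.20, adjusted p = 0.41), the highest of the complex, and -0.02 for the ubiquitous *Cox6b1* (SE 0.17, adjusted p = 0.95). *Cox8a*, the ubiquitous isoform of subunit VIII, had a ratio of 0.13 (SE 0.17, adjusted p = 0.66). *Cox6c* (-0.35), *Cox7b* (-0.30) and *Cox7c* (-0.22) were higher on both Met-low arrays, each with an interval that included 0 (SE 0.15 and adjusted p = 0.28 for *Cox7b*).

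**Figure D3:**
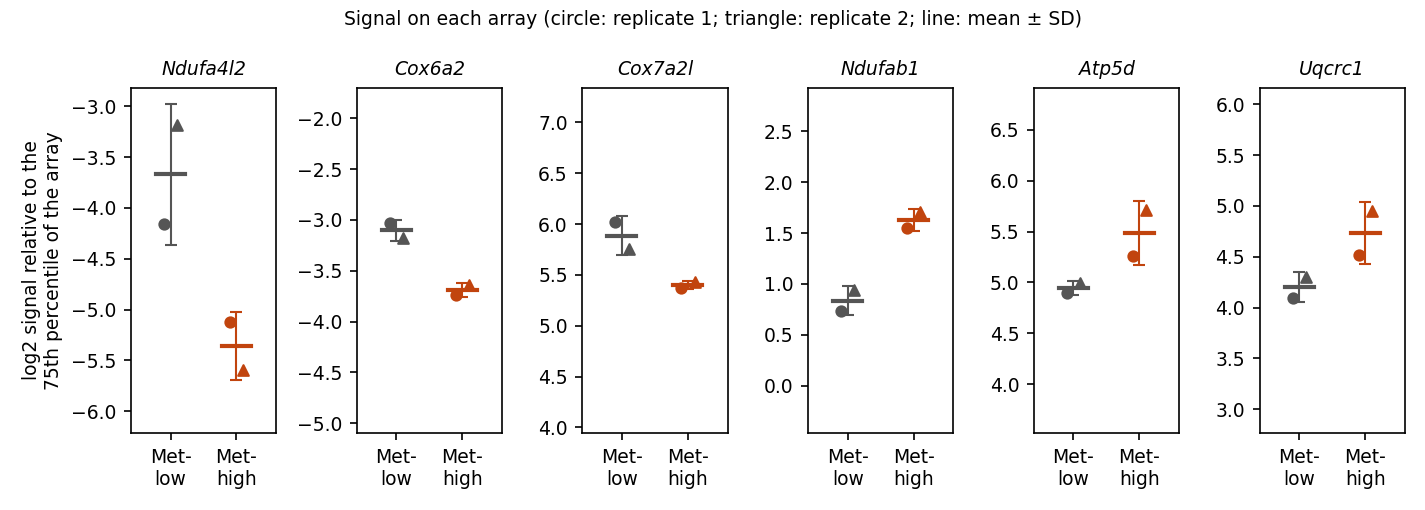
Level (log2 signal relative to the 75th percentile of the array, vertical axis, each panel spanning the same number of log2 units) of 6 members on each array, with circles for replicate 1, triangles for replicate 2 and lines for the mean ± SD (n = 2). The 6 have the highest and lowest ratios of all members, a choice that favours a lack of overlap. *Ndufa4l2*, *Cox6a2* and *Cox7a2l* are higher on both Met-low arrays, as are 22.6% of all genes. *Ndufab1*, *Atp5d* and *Uqcrc1* are higher on both Met-high arrays, as are 35.7% of all genes. None passed an adjusted p of 0.05. The Met-high signals of *Ndufa4l2* were too dim to be well above background, and the gene was kept through the Met-low arrays alone.

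In complex V, the ATP synthase, 8 of 17 subunits had the higher mean in Met-high and the median ratio was -0.02 (0.17 with median scaling, 0.07 without Met-high replicate 1). The parts of the enzyme lay on different sides of the median of all genes. This division by part was drawn up after the values had been seen and is a description without a test. In the catalytic head and central stalk (F1), 4 of 5 subunits had a higher mean in Met-high, beside 59.5% of all genes, and the median was 0.24. All 4 were without overlap, beside 35.7% of all genes. *Atp5a1*, the alpha subunit, had levels of 6.30 on both Met-low arrays and 6.54 on both Met-high arrays, and *Atp5b*, the catalytic beta subunit, had 7.99 and 7.86 in Met-low and 8.16 and 8.07 in Met-high. The differences, 0.24 for *Atp5a1* and 0.19 for *Atp5b*, were larger than the distance between the 2 arrays of either population. *Atp5c1*, the gamma subunit of the rotating stalk, had a ratio of 0.36 with 1 probe and 0.35 with the other.

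The highest ratio of complex V was that of *Atp5d*, the delta subunit of the central stalk, with levels of 4.90 and 4.99 in Met-low and 5.26 and 5.71 in Met-high. The populations did not overlap, although the Met-high arrays were further apart than the nearest arrays of the 2 populations. Its ratio was 0.54 (SE 0.21, 95% interval 0.02 to 1.06, limma adjusted p = 0.18). *Atp5e*, the epsilon subunit, was the exception in F1, with a ratio of -0.14. In the peripheral stalk and the membrane part, the Met-high mean was the higher one for 2 of 9 subunits, beside 59.5% of all genes. The median of this part was -0.11. Its Met-low arrays lay above the Met-high arrays for 5 of the 9 and below for 0, beside 22.6% and 35.7% of all genes. The lowest was *Atp5j*, coupling factor 6, at -0.20 (SE 0.16, adjusted p = 0.48). The 3 genes for the identical mature subunit c of the rotor ring, *Atp5g1*, *Atp5g2* and *Atp5g3*, had ratios of -0.09, 0.03 and 0.09 (SE 0.16, 0.16 and 0.15, limma adjusted p = 0.76, 0.92 and 0.73). The median of F1 stayed above that of all genes under the 18 alternatives (by 0.07 to 0.33). That of the peripheral stalk and membrane part stayed below it (by -0.27 to -0.02), turning above 0 with median scaling (0.07). Several of these alternatives cannot move either median relative to that of all genes.

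Of the 8 complex I assembly factors that carry the *Ndufaf* name, 6 had a higher mean in Met-high, with a median of 0.15. The ratios ran from -0.33 for *Ndufaf2* (SE 0.25, adjusted p = 0.44) to 0.39 for *Ndufaf6* (SE 0.20, adjusted p = 0.29). *Ndufaf2* had levels of 1.90 and 2.54 in Met-low and 1.86 and 1.93 in Met-high. Its low ratio came from Met-low replicate 2, and the other 3 arrays lay close together. With 7 further assembly factors of complex I, 12 of 15 had the higher mean in Met-high and the median was 0.18, with *Timmdc1*, which helps to build the membrane arm, the highest at 0.42 (SE 0.35, adjusted p = 0.49), and 0 passed the test in limma (0 at an unadjusted p under 0.05).

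Other mitochondrial genes were read from lists of the same pathway. Of 30 assembly factors of complexes II to V, 18 had a higher mean in Met-high (60%, beside 59.5% of all genes). The median was 0.05, and 1 passed. This was *Cox17*, a copper chaperone for complex IV, with levels of -3.39 and -3.40 in Met-low and -4.38 and -4.16 in Met-high and a ratio of -0.88 (SE 0.17, limma adjusted p = 0.049). The arrays did not overlap, but the call was lost when any 1 array was left out (adjusted p = 0.065 to 0.14), and with normexp background correction the ratio was -0.35 (adjusted p = 0.22). Over all alternatives the adjusted p ran from 0.015 to 0.22. *Cox20*, which helps to mature subunit II of complex IV, had a ratio of -0.91 (SE 0.18, adjusted p = 0.056), and *Uqcc3*, an assembly factor of complex III, one of 0.91 (SE 0.29, adjusted p = 0.13). The spread of this list was wider than that of the subunits, with ratios within 0.5 of 0 for 80% of its genes beside 94.6% of the members.

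Among 18 regulators of mitochondrial biogenesis and of mitochondrial DNA, 11 had a higher mean in Met-high (61.1%, beside 59.5% of all genes). The median was 0.25 and 0 passed in limma (3 at an unadjusted p under 0.05, 2 of them higher in Met-high). *Ppargc1a*, the coactivator PGC-1alpha, had levels of -0.01 and 0.07 in Met-low and -0.76 and -1.31 in Met-high. Both Met-high arrays lay below both Met-low arrays, and the ratio was -1.06 (SE 0.23, 95% interval -1.64 to -0.49, adjusted p = 0.064). The adjusted p ran from 0.016 to 0.24 over the alternatives, and the ratio was under 0 in each of them. *Nrf1* (0.36) and *Tfam* (0.38), which act on the nuclear and the mitochondrial genome, *Gabpa* (-0.39), a subunit of GABP, and *Esrra* (-0.00), a nuclear receptor partner of PGC-1alpha, had intervals that included 0. At the upper end *Polg2*, the accessory subunit of the mitochondrial DNA polymerase, had a ratio of 0.45 (SE 0.16, adjusted p = 0.15).

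Of 23 genes of the citric acid cycle and pyruvate oxidation, 19 had a higher mean in Met-high (82.6%, beside 59.5% of all genes). The median was 0.24 and 0 passed in limma (3 at an unadjusted p under 0.05, all higher in Met-high). These were *Pcx*, pyruvate carboxylase (0.67, SE 0.18, adjusted p = 0.10), *Cs*, citrate synthase (0.67, adjusted p = 0.096), and *Idh2*, the mitochondrial NADP-dependent isocitrate dehydrogenase (0.57, adjusted p = 0.11), each without overlap between the populations. The lowest of the list was *Pdp1*, a phosphatase of pyruvate dehydrogenase, at -0.41 (SE 0.20, adjusted p = 0.26). Among 14 carriers, porins and regulators of ATP synthase, 11 had a higher mean in Met-high, the median was 0.22, and 1 passed: *Slc25a10*, the dicarboxylate carrier, with levels of -0.50 and -0.49 in Met-low and 0.51 and 0.49 in Met-high. The ratio was 0.995 (SE 0.15, limma adjusted p = 0.029), and leaving out any 1 array raised the adjusted p to between 0.055 and 0.081, and keeping all dim probes raised it to 0.15. The ADP/ATP carriers *Slc25a4* and *Slc25a5*, which export the ATP made by complex V, had ratios of 0.10 and 0.04, and *Mpc2*, a subunit of the pyruvate carrier, was the lowest at -0.29 (SE 0.15, adjusted p = 0.29). The uncoupling proteins *Ucp1*, *Ucp2* and *Ucp3* were well above background on no array.

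**Figure D4:**
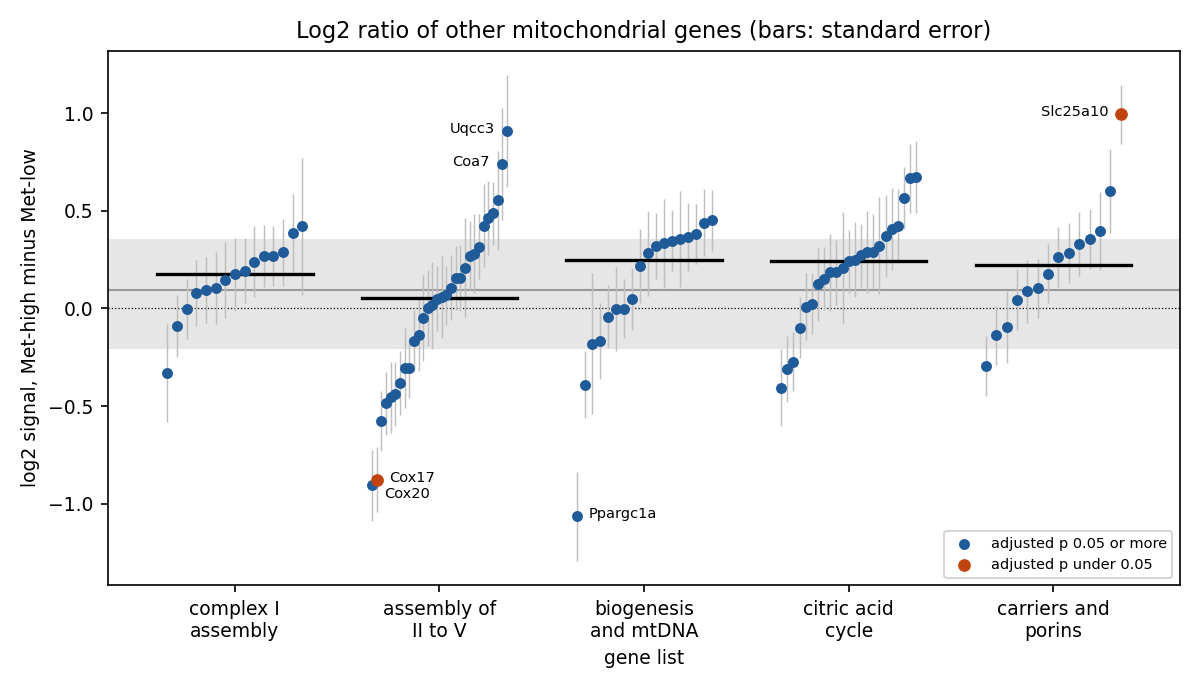
Log2 ratio (Met-high minus Met-low) of the kept genes of 5 other mitochondrial lists, with bars for the standard error from limma (n = 2 arrays per population), black lines for the median of each list (0.18, 0.05, 0.25, 0.24 and 0.22) and a grey band for the middle 50% of all genes. *Cox17* and *Slc25a10* are the points with an adjusted p under 0.05.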

How the data were processed

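Gene expression was measured on 1-colour Agilent mouse arrays in 2 Met-low and 2 Met-high samples of B16-F10 cells. The authors deposited the scanner output, with a background-corrected Cy3 intensity per spot on a linear scale, and a table of processed log2 values. Feature Extraction is version 10.7.3.1 in the labels and 11.0.1.1 in the file headers. Set against the scanner intensities, the deposited log2 values followed the intensity relative to the 75th percentile, centred on each probe's median, with slopes of 0.994 to 1.00 and 93.3% to 99.8% of probes within 0.01.

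Intensities were taken to log2 and set relative to each array's 75th percentile over spots that are not controls, leaving out outlier flags (207 to 232 spots per array). The floor of 0.01 changed 0 spots. Probes were named by accession through the RefSeq gene table of GRCm38.p6 (27427 of 39429 matched), which also gave the promoter windows. Each gene was read from its probe with the highest mean, and genes were kept that both arrays of either population read well above background. Met-high was compared with Met-low by lmFit and eBayes of limma 3.58.1 (R 4.3.3), two-sided, with Benjamini-Hochberg adjustment over all 11958 genes and a threshold of 0.05. The p-values rest on a moderated spread. It combines the spread between the 2 samples of each population with a spread estimated over all genes. The number of arrays limits the precision. 1 leukocyte marker is not reported here.

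The ratio with its SE and adjusted p (for a bound, the adjusted p alone) was given for members at an adjusted p under 0.05, for the highest and lowest ratio of each complex, for isoform sets, and for members whose probes disagreed in sign or by over 1 log2 unit. From the other mitochondrial lists they were given for genes at an adjusted p under 0.05 and for the highest and lowest ratio. Members, lists and this rule were chosen with earlier results of these data known, the division into parts of a complex after the values were seen, and members named beyond the rule likewise. There were 18 alternatives, covering background (normexp, offset 50), scaling, filter, floor, flags, probes, the deposited table, each array left out, the replicate block and the variance model. Median scaling and the percentile over detected probes shift every gene equally, and the variance models and the floor left the ratios unchanged. These cannot move a median relative to that of all genes. A population left with 1 array was taken to have the spread of the other. Figures were drawn with Python 3.11.15, numpy 2.4.6, pandas 2.3.3 and matplotlib 3.10.9.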

Additional observations from a re-analysis of the deposited data

How the results depend on the processing

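Of the main counts, 0 members called in either direction and 1 over 2-fold higher in Met-low, those over 2-fold higher in Met-high stayed at 0 under all 18 alternatives. Members called higher in Met-high numbered 1 with a mean-variance trend, 1 with median scaling and 4 with the replicate block, and 0 without each array in turn. Members called higher in Met-low numbered 1 with every probe by itself, 1 with median scaling and 2 with the replicate block, and 0 to 1 without each array (1 without Met-low replicate 1 and 1 without Met-high replicate 1, *Ndufa4l2* both times). Members over 2-fold higher in Met-low numbered 2 with every probe by itself, 0 with normexp and 0 with the filter on all 4 arrays, which removes *Ndufa4l2*. The median ratio of the members was 0.23 with median scaling, and -0.08 to 0.14 without each array. Over all genes, calls numbered 233 higher in Met-high and 457 higher in Met-low, but 872 and 602 with median scaling, 143 and 596 with the percentile over detected probes, 392 and 539 with the trend, 0 and 7 without a filter, and 158 and 450 of 15625 probes by themselves. The replicate numbers are not said to mark a batch. Deviations of same-numbered arrays correlated at 0.54 over all genes and 0.21 over members, and with the number as a block 1976 and 1580 genes were called, and 6 members (6.52%, beside 29.7% of all genes), *Atp5d*, *Cox6a2*, *Cyc1*, *Ndufa4l2*, *Ndufab1* and *Uqcrc1*. The cause of these changes was not tested.

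Signs turned only for values that were not called. With median scaling the ratios were 0.092 for *Atp5g1*, 0.062 for *Atp5l*, 0.071 for *Atp5pb*, 0.16 for *Cox6b1*, 0.0026 for *Cox7a1*, 0.16 for *Cox7a2*, 0.045 for *Cycs* and 0.18 for *Ndufa4*. With the percentile over detected probes they were -0.12 for *Atp5g2*, -0.050 for *Atp5g3*, -0.074 for *Cox4i1*, -0.097 for *Cox6a1*, -0.016 for *Cox8a*, -0.041 for *Ndufaf4* and -0.053 for *Sdhc*. With quantile normalization they were -0.052 for *Atp5g2*, -0.042 for *Cox6a1*, -0.018 for *Ndufaf4* and -0.059 for *Sdhc*. *Cox7a2* was 0.012 with normexp, and *Ndufaf4* -0.12 with the mean of its probes. Leaving out each array in turn gave ratios of -0.037 to 0.095 for *Atp5g2*, -0.064 to 0.20 for *Cox4i1*, -0.088 to 0.39 for *Cox4i2*, -0.042 to 0.14 for *Cox6a1*, -0.14 to 0.10 for *Cox6b1*, -0.39 to 0.024 for *Cox7a1*, -0.12 to 0.080 for *Cox7a2*, -0.17 to 0.16 for *Ndufa4*, -0.020 to 0.23 for *Ndufaf4*, -0.011 to 0.19 for *Sdhc* and -0.0020 to 0.84 for *Timmdc1*.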
